A study of Mus musculus with 6 samples.

Results

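The 10 glycolysis genes Slc2a1, Hk2, Pfkl, Aldoa, Tpi1, Pgk1, Pgam1, Eno1, Pkm and Ldha were followed in mouse embryonic stem (ES) cells during conversion from serum to 2i+vitC. They were chosen by name, as a glucose transporter, enzymes of glycolysis and lactate dehydrogenase, and all 10 had a row among the 12626 genes of the processed files. Total RNA of WT J1 ES cells, a single line, was sequenced from stranded mRNA libraries on 3 days, D0 (serum) and D6 and D13 (2i+vitC), each with 2 biological replicates. At D0 the cells grew in Glasgow medium with 15% FBS, sodium pyruvate and 1000 U/mL LIF. At D6 and D13 they grew in a mix of Neurobasal and DMEM/F12 with Ndiff Neuro2 and B27 supplements, the same LIF, 3 µM of the Gsk3 inhibitor CT-99021, 1 µM of the MEK inhibitor PD0325901 and 100 µg/mL vitamin C. All 3 groups were feeder-free on gelatin, and basal medium, serum, inhibitors and vitamin C changed together, so that their effects cannot be told apart.

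Glycolysis splits glucose into pyruvate in the cytosol and yields ATP without oxygen. Glucose enters through transporters of the Slc2a (GLUT) family, is trapped by hexokinase and committed by phosphofructokinase, and the pyruvate made at the end is either imported by mitochondria or reduced to lactate by lactate dehydrogenase. Most steps have several isozymes coded by separate genes, and pluripotent cells are known to use glycolysis heavily, with naive cells in 2i also respiring.

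Each sample held between 73230745 and 83688345 gene reads, and 3 reads corresponded to between 0.034 and 0.042 CPM (counts scaled to library size after TMM). Eno1 had the fewest reads of the members, 49 to 101 per sample. All 8 ES cell markers searched for had a row, with a summed level of 4325 to 4375 CPM at D0, 5505 to 5814 at D6 and 4756 to 6852 at D13. Single markers differed between the D0 replicates 1 and 2, with 156 and 436 CPM for Esrrb, 476 and 859 CPM for Zfp42 and 1184 and 433 CPM for Tdgf1. Of the other marker lists, the erythroid genes had no row, the fibroblast genes Col3a1, Dcn, Lum and Postn had none, and the trophectoderm genes Cdx2, Elf5 and Hand1 had none. The 3 trophectoderm genes with a row summed to 111 to 170.4 CPM at D0 and 17.9 to 23.2 CPM at D6 and D13, and the 3 fibroblast genes to 10.1 to 29.7 CPM at D0 and 4.86 to 5.62 CPM afterwards. The 3 neural genes with a row (Pax6 had none) summed to 156 to 209 CPM at D0, 103 to 124 CPM at D6 and 97.8 to 98.4 CPM at D13. The higher D0 sum of these 3 lists was that of D0 replicate 1. Their genes did not all move alike from D0 to D13. Krt8, Krt18, Col1a1, Col1a2 and Tubb3 fell, whereas Sox1 rose from 2.00 to 7.35 CPM as day means (limma adjusted p = 0.0023). Eomes (4.56 and 3.31 CPM), Thy1 (4.96 and 3.12 CPM) and Nes (117 and 72.0 CPM) did not pass. The 6 primitive endoderm genes with a row (Foxa2 had none) summed to 414 to 536 CPM over the 6 samples, but among them Dab2 fell from 15.9 and 16.8 CPM in the D0 samples to 0.59 and 0.70 CPM in those of D13 (limma adjusted p = 6.95e-05) and Col4a1 from 81.7 and 126 CPM to 2.08 and 3.07 CPM (limma adjusted p = 0.000188), while Sparc and Lama1 had higher means at D13 and did not pass. The part of these markers in the results was not tested. In bulk RNA, fewer cells of a type and less RNA per cell cannot be told apart.

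**Figure D1:**
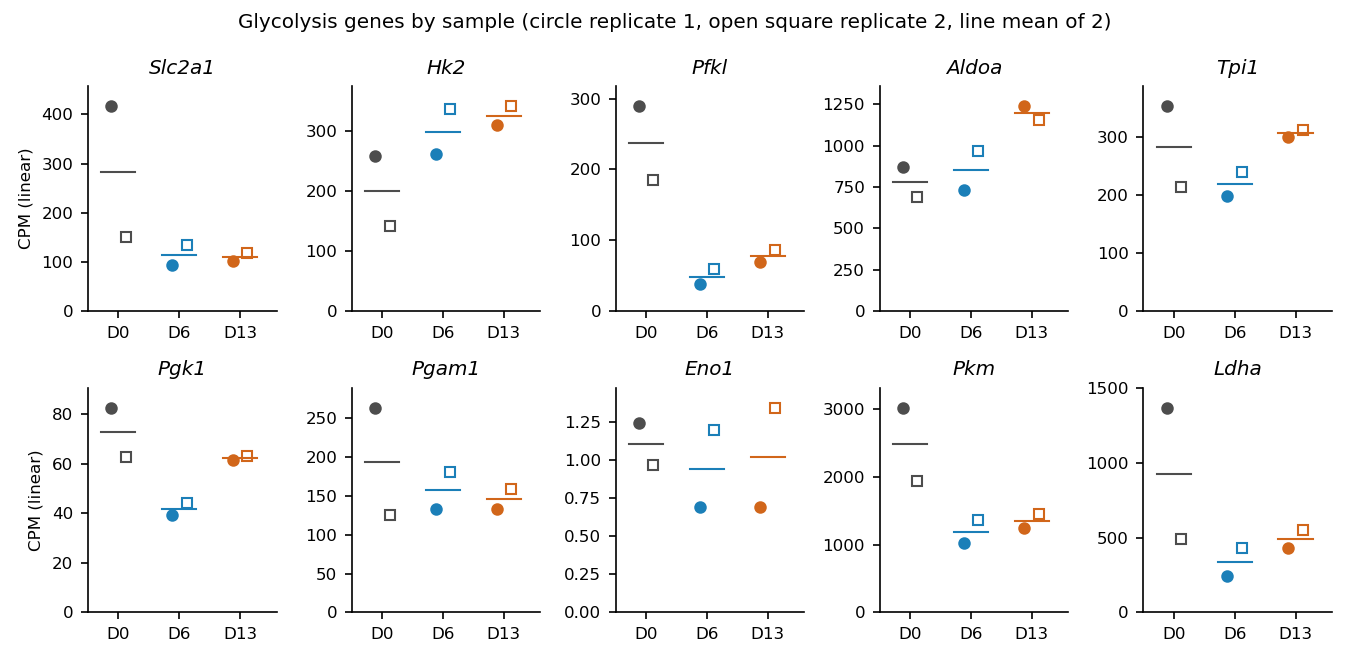
CPM on linear axes from 0 for each of the 10 glycolysis genes in the 6 samples, with a filled circle for replicate 1, an open square for replicate 2 and a line for the mean of the 2. At D0 replicate 1 lies above replicate 2 in each panel, and the D6 and D13 samples of Pfkl (37.5 to 86.6 CPM) lie below both of its D0 samples (186 and 289 CPM).

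The members summed to 6911 and 3998 CPM in the D0 samples, 2755 and 3753 CPM in those of D6 and 3887 and 4243 CPM in those of D13. As a share of all gene reads this was 0.684% and 0.417% in the D0 samples, 0.289% and 0.386% in those of D6 and 0.373% and 0.435% in those of D13. Both D6 shares lay below both D0 shares, whereas the D13 shares overlapped those of D0. Per kb of exon, which allows levels of different genes to be compared, the mean over the 6 samples was highest for Pkm (642 CPM per kb), followed by Aldoa (516), Ldha (309), Tpi1 (153), Pgam1 (93.5), Slc2a1 (51.8), Hk2 (49.0), Pfkl (32.5), Pgk1 (32.3) and Eno1 (0.40). Neighbours in this order had overlapping ranges over the samples, except that every Pgk1 value (21.5 to 45.2 CPM per kb) was above every Eno1 value (0.27 to 0.53 CPM per kb).

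Eno1, Pgk1 and Pgam1 have near-identical copies elsewhere in the genome. Of all 100-base stretches of the Eno1 transcript, 59.0% were also found in another annotated gene, mostly in Eno1b. For Pgk1 this share was 67.0%, mostly in Pgk1-rs7, and for Pgam1 39.7%, mostly in Pgam1-ps2. It was 9.82% for Pkm, 1.28% for Ldha, 0.80% for Tpi1, 0.19% for Slc2a1 and 0% for Hk2, Pfkl and Aldoa. How reads with several mapping sites were counted for genes is not given in the sources used here. The levels of Eno1, Pgk1 and Pgam1 are therefore uncertain, and so are their places in the order per kb above.

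Differences between days were tested with limma on the log2 CPM of all 6 samples, with adjustment over all genes and transposon families, and a gene is said to have risen or fallen at an adjusted p under 0.05. From D0 to D6, 3 of the 10 members fell (Pfkl, Pgk1 and Pkm) and 0 rose, beside 10.4% of all genes that fell and 13.8% that rose. From D6 to D13, 0 members passed in either direction in limma, nor with voom precision weights (2, Pfkl and Pgk1, at an unadjusted p under 0.05, both higher at D13), with 2.76% of all genes falling and 1.43% rising. From D0 to D13, 3 members fell (Slc2a1, Pfkl and Pkm) and 0 rose, beside 21.8% and 20.9% of all genes. The comparisons from D0 to D6 and from D0 to D13 share the D0 samples. The member counts depended on which D0 sample was kept. Without D0 replicate 1 the median log2 fold change over the members to D6 was -0.255, and without D0 replicate 2 it was -0.87.

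Under the fold minimum of 4 that the study set for genes, 1 member (Pfkl) was called from D0 to D6, downward, against 3.90% of all genes called down and 5.91% called up. From D6 to D13 the count was 0 in limma, as it was at any fold, beside 0.697% of all genes down and 0.388% up. It was also 0 from D0 to D13, beside 6.01% down and 7.45% up, with 2 members past a 2-fold minimum. The median log2 fold change over the members was -0.56 (D0 to D6), 0.34 (D6 to D13) and -0.26 (D0 to D13), while that over all genes was -0.01 in each of them. A lower mean was found for 8 of 10 members at D6 relative to D0, for 2 at D13 relative to D6 and for 7 at D13 relative to D0. Of all genes, 50.9%, 51.0% and 50.4% had a lower mean in these comparisons, and the member counts were not tested.

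**Figure D2:**
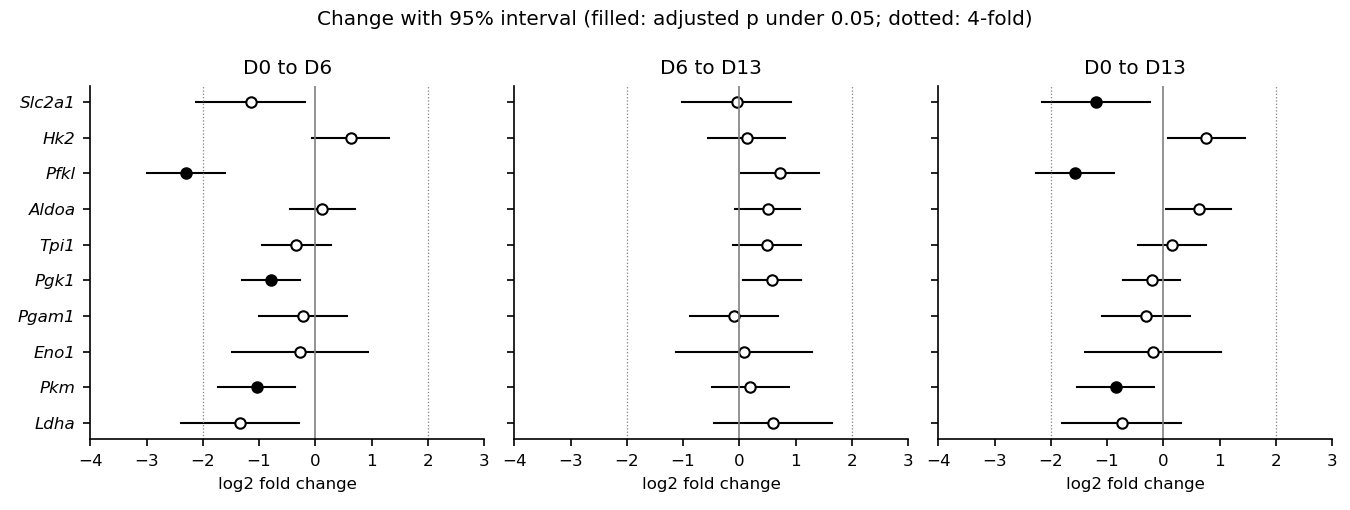
Log2 fold change (x axis) of each glycolysis gene (y axis) in the 3 comparisons, with the 95% interval of the limma fit as a bar, filled points for an adjusted p under 0.05 and dotted lines at 4-fold. From D0 to D6 the filled points are Pfkl, Pgk1 and Pkm, from D6 to D13 there is none, and from D0 to D13 they are Slc2a1, Pfkl and Pkm.

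Slc2a1 codes for GLUT1, a basal glucose transporter, and lies on chromosome 4 (GRCm38, positions 119108745 to 119137330). The level of Slc2a1 was 416 and 150.5 CPM in the D0 samples, 94.2 and 135 CPM in those of D6 and 101 and 118 CPM in those of D13. Both D0 samples were above the other 4, but the D0 replicates themselves differed by 2.77-fold, while D6 and D13 overlapped. From D0 to D13 Slc2a1 fell by a log2 fold change of -1.20 (standard error 0.42, 95% interval -2.16 to -0.24, limma adjusted p = 0.0487). Its value to D6 was -1.15 (limma adjusted p = 0.0846), short of the threshold. Without D0 replicate 1 the values were -0.47 to D13 (limma adjusted p = 0.24) and -0.42 to D6, without D0 replicate 2 they were -1.93 (limma adjusted p = 0.0037) and -1.89 (limma adjusted p = 0.0055), and without D13 replicate 1 or D13 replicate 2 the call to D13 was also lost (limma adjusted p = 0.20 and 0.11).

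Hk2, the inducible hexokinase (chromosome 6, 82725025 to 82774454), had a higher mean at D6 and D13 than at D0, unlike most members. For Hk2, the replicates gave 259 and 142 CPM in the D0 samples, 261 and 337 CPM in those of D6 and 310.0 and 341 CPM in those of D13. The lowest D6 sample exceeded the highest D0 sample by a narrow margin, and D6 and D13 overlapped. Its log2 fold change was 0.63 to D6 (95% interval -0.05 to 1.32, limma adjusted p = 0.17) and 0.76 to D13 (95% interval 0.08 to 1.45, limma adjusted p = 0.07), and neither passed. Without D0 replicate 1, which held 1.83 times the CPM of D0 replicate 2, they were 1.07 (limma adjusted p = 0.0315) and 1.20 (limma adjusted p = 0.0138). A fit blocked on replicate number also took the D13 value past the threshold (limma adjusted p = 0.0487).

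Pfkl, the liver-type subunit of phosphofructokinase and so part of the committing step (chromosome 10, 77986947 to 78009807), had the largest changes of the 10. Pfkl had 289 and 186 CPM in the D0 samples, 37.5 and 59.6 CPM in those of D6 and 69.8 and 86.6 CPM in those of D13. The 3 days did not overlap, with D0 highest, D6 lowest and D13 between them. By D6 Pfkl had fallen 4.90-fold, a log2 fold change of -2.29 (standard error 0.30, 95% interval -2.98 to -1.60, limma adjusted p = 0.000861). The fold minimum of 4 was missed without D0 replicate 1 (-1.97) and without D6 replicate 1 (-1.96). At D13 Pfkl remained 2.98-fold below D0, a log2 fold change of -1.57 (standard error 0.30, 95% interval -2.27 to -0.88, limma adjusted p = 0.00377). The difference from D6 to D13, 0.72 (95% interval 0.03 to 1.41), did not pass (limma adjusted p = 0.19). Both calls of Pfkl held under each of the 14 alternative settings, with an adjusted p of at most 0.0096 to D6 and 0.034 to D13.

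Aldoa and Tpi1 code for the enzymes that split fructose bisphosphate and interconvert the resulting trioses. The level of Aldoa was 870.2 and 687 CPM in the D0 samples, 732 and 969 CPM in those of D6 and 1237 and 1156 CPM in those of D13. Both D13 samples of Aldoa were above the other 4, which overlapped. The log2 fold change to D13 was 0.63 (95% interval 0.05 to 1.21, limma adjusted p = 0.0749), short of the threshold, and 0.12 to D6 (limma adjusted p = 0.78). For Tpi1, the replicates gave 353 and 215 CPM in the D0 samples, 198 and 240.0 CPM in those of D6 and 301 and 314 CPM in those of D13. The D13 values of Tpi1 lay inside the D0 range and above both D6 values. None of its log2 fold changes, -0.34 to D6, 0.49 from D6 to D13 and 0.16 from D0 to D13, passed (limma adjusted p = 0.42, 0.30 and 0.66).

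Pgk1, the first ATP-yielding enzyme of the pathway, is X-linked (106187100 to 106203699) and was lowest at D6. Pgk1 had 82.5 and 62.9 CPM in the D0 samples, 39.2 and 44.3 CPM in those of D6 and 61.5 and 63.3 CPM in those of D13. Both D6 samples were below the other 4, and D0 and D13 overlapped. Pgk1 fell from D0 to D6 by a log2 fold change of -0.79 (standard error 0.22, 95% interval -1.30 to -0.28, limma adjusted p = 0.0338). This call was lost without D0 replicate 1 (-0.59, limma adjusted p = 0.13), without D6 replicate 1 (-0.70, limma adjusted p = 0.32), without D6 replicate 2 (-0.88, limma adjusted p = 0.16) and without a mean-variance trend (limma adjusted p = 0.0598). The later difference, D6 to D13, was 0.58 (95% interval 0.07 to 1.09, limma adjusted p = 0.16). With 67.0% of its stretches shared with other genes, mostly Pgk1-rs7, these Pgk1 values are uncertain.

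Pgam1, phosphoglycerate mutase, and Eno1, enolase, make phosphoenolpyruvate. The level of Pgam1 was 263 and 125 CPM in the D0 samples, 133 and 181 CPM in those of D6 and 134 and 159 CPM in those of D13. The 3 days overlapped, and the D0 replicates spanned all the other samples. The 95% interval of its log2 fold change was -1.01 to 0.56 to D6 and -1.10 to 0.47 to D13. For Eno1, the replicates gave 1.24 and 0.968 CPM in the D0 samples, 0.691 and 1.19 CPM in those of D6 and 0.692 and 1.34 CPM in those of D13. The 3 days of Eno1 overlapped as well, with intervals of -1.47 to 0.94 to D6 and -1.39 to 1.02 to D13. For Eno1b, with which Eno1 shares most of its transcript, the replicates gave 569 and 376 CPM in the D0 samples, 216 and 309.6 CPM in those of D6 and 237 and 261 CPM in those of D13, and it fell from D0 to D13 by a log2 fold change of -0.89 (limma adjusted p = 0.0296). This call was lost without D0 replicate 1, D13 replicate 1 or D13 replicate 2, with an adjusted p of up to 0.15. The sum of both was 570.5 and 377 CPM in serum, 217 and 311 CPM on D6 and 238 and 263 CPM on D13, with both D0 samples above the other 4.

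Pkm codes for the pyruvate kinases PKM1 and PKM2, which the gene counts do not tell apart (chromosome 9, 59656576 to 59679372). Pkm had 3011 and 1941 CPM in the D0 samples, 1015 and 1357 CPM in those of D6 and 1241 and 1452 CPM in those of D13. Both D0 samples were above the other 4, and D6 and D13 overlapped. By D6 Pkm had fallen 2.06-fold, a log2 fold change of -1.04 (standard error 0.30, 95% interval -1.73 to -0.36, limma adjusted p = 0.036). It fell 1.80-fold from D0 to D13, a log2 fold change of -0.85 (standard error 0.30, 95% interval -1.54 to -0.16, limma adjusted p = 0.0498). The D13 call stood just inside the threshold and was lost under 10 of 14 alternative settings, where the adjusted p reached 0.19 (without D0 replicate 1, -0.53). The D6 call was lost without D0 replicate 1 (-0.73, limma adjusted p = 0.14), without D6 replicate 1 (-0.83, limma adjusted p = 0.34) and without D6 replicate 2 (-1.25, limma adjusted p = 0.0902).

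Ldha codes for the lactate dehydrogenase subunit that favours lactate formation (chromosome 7, 46842274 to 46855627) and had the largest ratio between the D0 replicates among the 10. The level of Ldha was 1365 and 488 CPM in the D0 samples, 243 and 429.8 CPM in those of D6 and 432 and 552 CPM in those of D13. Both D6 samples were below all others, and D0 and D13 overlapped. The difference from D0 to D6, which did not pass, was a log2 fold change of -1.34 (standard error 0.46, 95% interval -2.39 to -0.28, limma adjusted p = 0.0693). The difference to D13 was -0.74 (95% interval -1.79 to 0.31, limma adjusted p = 0.23). Without D0 replicate 2 the values were -2.08 to D6 (limma adjusted p = 0.0104) and -1.48 to D13 (limma adjusted p = 0.0244), without D0 replicate 1 they were -0.60 and 0.00, and without D6 replicate 2 the D6 value was -1.75 (limma adjusted p = 0.0309).

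The replicates of a day deviated together over the members. At D0, 10 of 10 members were higher in replicate 1, by a median of 0.68 on the log2 scale, while 45.4% of all genes were higher in replicate 1 and the median over all genes was -0.06. At D6, 10 of 10 were higher in replicate 2, with a median log2 difference of replicate 1 minus replicate 2 of -0.43, beside 53.1% of all genes higher in replicate 2. At D13, 9 of 10 were higher in replicate 2 (median -0.22), beside 49.4% of all genes. The D0 difference ranged from 1.27-fold in Aldoa to 2.79-fold in Ldha. These counts were noticed in the data and were not tested, since members of a sample are not independent of each other.

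**Figure D3:**
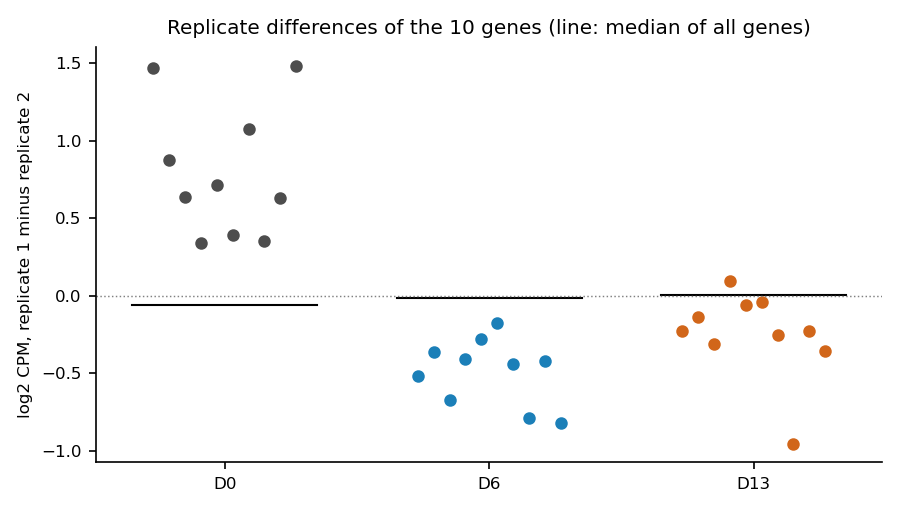
Log2 CPM of replicate 1 minus replicate 2 (y axis) for each of the 10 glycolysis genes at D0, D6 and D13 (x axis), with the median over all genes as a line. All D0 points lie above 0 (median 0.68), all D6 points lie below 0 (median -0.43), and 9 of the 10 D13 points lie below 0.

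Paralogs of 4 members rose, in part where the member fell. Hk1, the constitutive hexokinase, had 25.1 and 49.5 CPM in the D0 samples, 253 and 240.4 CPM in those of D6 and 408 and 408 CPM in those of D13. It rose 7.0-fold from D0 to D6 (log2 fold change 2.81, standard error 0.30, limma adjusted p = 0.000298) and 11.6-fold by D13 (3.53, standard error 0.30, limma adjusted p = 7.11e-05), and kept both calls without any 1 sample (adjusted p of at most 0.003). Per kb, Hk2 made 89.9% and 71.2% of the summed Hk1 and Hk2 level in the D0 samples, 47.1% and 54.8% in those of D6 and 39.6% and 42.0% in those of D13, so that both D0 shares were above all the others. The sum itself was 43.4 ± 11.3 CPM per kb in serum, 104 ± 7.57 on D6 and 142 ± 3.86 on D13 (SD, n = 2).

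The platelet-type phosphofructokinase gene Pfkp had 72.0 and 154 CPM in the D0 samples, 263 and 325 CPM in those of D6 and 356 and 315 CPM in those of D13. It rose to D6 (1.47, standard error 0.34, limma adjusted p = 0.0133) and to D13 (1.67, standard error 0.34, limma adjusted p = 0.0047). The muscle-type gene Pfkm had 44.9 and 42.2 CPM in the D0 samples, 80.9 and 65.0 CPM in those of D6 and 137 and 119 CPM in those of D13, and rose to D6 (0.74, limma adjusted p = 0.038) and to D13 (1.55, limma adjusted p = 0.00075). Both D13 calls held without any 1 sample, whereas the D6 call of Pfkp was lost without D6 replicate 2 (adjusted p = 0.057), and that of Pfkm was lost without any 1 of the D0 or D6 samples (up to 0.44). Of the summed level of the 3 subunit genes per kb, Pfkl made 71.0% and 49.9% in the D0 samples, 10.2% and 14.1% in those of D6 and 12.7% and 17.1% in those of D13, with D0 apart from the others. This sum was 104 ± 6.81 CPM per kb in serum, 106 ± 10.6 on D6 and 142 ± 7.80 on D13 (SD, n = 2), so that it changed by less than its SD from D0 to D6 while Pfkl fell. The Pfkp transcript shares 16.04% of its stretches with the neighbouring Pitrm1.

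For Ldhb, the lactate dehydrogenase subunit that favours pyruvate formation, the replicates gave 66.2 and 255.9 CPM in the D0 samples, 497 and 358 CPM in those of D6 and 1006 and 783 CPM in those of D13. It rose to D6 (1.69, standard error 0.53, limma adjusted p = 0.0476) and to D13 (2.77, standard error 0.53, limma adjusted p = 0.0036). The D6 call was lost without D0 replicate 1, D6 replicate 1, D13 replicate 1 or D13 replicate 2 (adjusted p of up to 0.15), its value ranging from 0.72 to 2.67, and the D13 call held without any 1 sample, with values from 1.79 to 3.74. Ldha made 93.4% and 56.8% of the summed Ldha and Ldhb level per kb in the D0 samples, 25.2% and 45.3% in those of D6 and 22.8% and 32.7% in those of D13. The D0 shares were again above the others.

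Slc2a3, the GLUT3 gene, had 531 and 768 CPM in the D0 samples, 1071 and 1038 CPM in those of D6 and 1081 and 1215 CPM in those of D13, and had risen by D13 (0.84, standard error 0.26, limma adjusted p = 0.0278), a call that held without D0 replicate 2 but was lost without any 1 of the other samples (adjusted p of up to 0.11). Slc2a1 made 48.8% and 19.2% of the summed level of both per kb in the D0 samples, 9.65% and 13.6% in those of D6 and 10.2% and 10.5% in those of D13. In D0 replicate 1, where each of the members was higher, 5 of the 10 paralogs (Hk1, Pfkp, Ldhb, Slc2a3 and Eno2) were lower than in D0 replicate 2, and the other 5 (Pfkm, Eno1b, Aldoc, Eno3 and Pgam2) were higher, with 44.9 against 42.2 CPM for Pfkm, 569 against 376 CPM for Eno1b and 14.8 against 9.55 CPM for Aldoc. With 2 samples per day, an exact two-sided permutation test of a share cannot give a p below 0.333, and none was run.

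**Figure D4:**
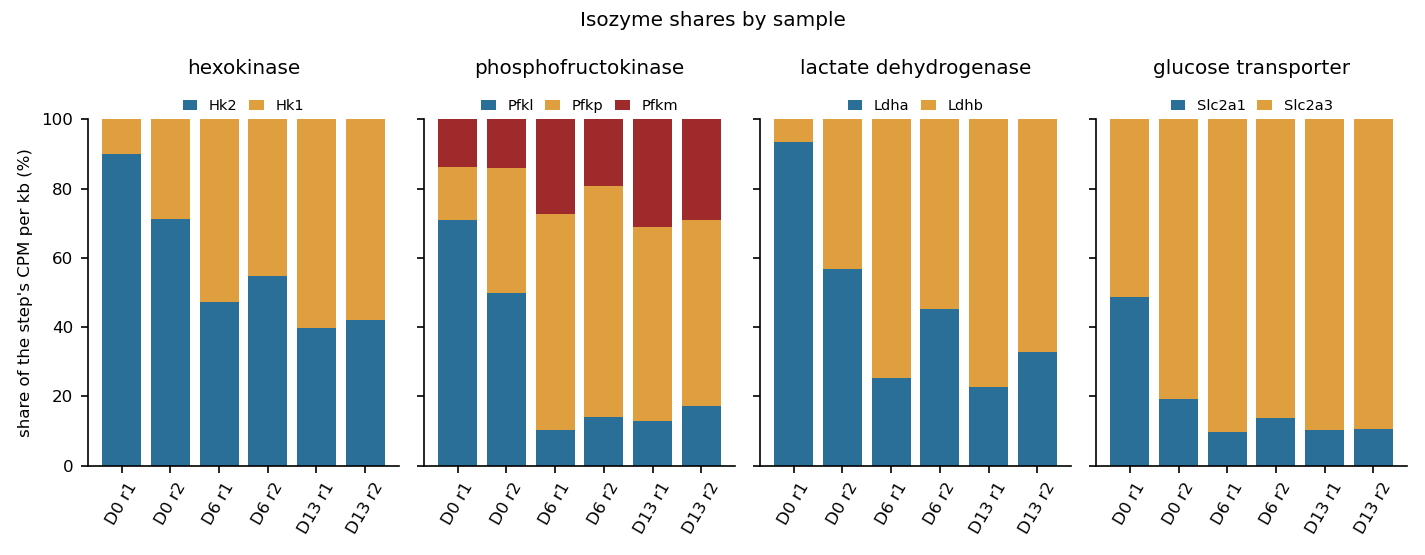
Share (y axis, %) of each isozyme gene in the summed CPM per kb of its step for the 6 samples (x axis; r1 and r2 are the replicates), as stacked bars. Hk2 (89.9% and 71.2%), Pfkl (71.0% and 49.9%) and Ldha (93.4% and 56.8%) have their 2 highest shares in the D0 samples, and so has Slc2a1 (48.8% and 19.2%).

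Other paralogs were lower or less changed. Eno3, the muscle enolase gene, fell from 28.5 ± 3.6 CPM at D0 to 8.83 ± 0.24 at D6 and 9.51 ± 0.09 at D13 (SD, n = 2; limma adjusted p = 0.0017 and 0.0015 relative to D0). Aldoc (4.09 to 6.76 CPM per kb as day means), Eno2 (0.77 to 1.48) and Pgam2 (2.49 to 3.85) did not pass in any comparison. Among the 11 of 17 listed genes of other isozymes with a row, 3 rose and 3 fell from D0 to D13, with a median log2 fold change of 0.55.

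The motifs ACGTG, the core of the hypoxia response element, GCGTG, a variant of it, and CACGTG, the E-box bound by Myc and by ChREBP-type factors, were searched on both strands of the RefSeq promoter windows (250 bases before to 50 bases after each annotated start, GRCm38.p6). CACGTG contains ACGTG on both strands. ACGTG was found for 7 of the 10 members beside 21.8% of 27025 genes, GCGTG for 5 beside 35.2%, either of these for 9 beside 46.7%, and CACGTG for 1 (Ldha) beside 8.1%. A gene was counted if any of its windows matched. By window, ACGTG was found in 8 of 16 for the members beside 19.6% of all 32851. GCGTG was found in 8 beside 32.4%, and either of these in 13 beside 43.8%. Some windows of Aldoa and of Eno1 overlap, so that the same match is counted again by window. The 10 members had 16 windows and the 27025 genes 32851, so the members had more windows per gene in which to match. All 3 motifs contain CG, and the windows were not matched on GC content (52.7% to 69.0% in those of the members). A match is a description of the letters only, and the shares were not tested. Examples of the matches are shown for the members that fell in a comparison, for Hk2 and for Ldha, on the strand of the gene with the match in capitals. The windows of Slc2a1, Hk2, Pkm and Ldha hold further matches that are not shown. Slc2a1 is shown at chr4:119108697-119108725, Hk2 at chr6:82774490-82774518 (minus strand), Pfkl at chr10:78009890-78009918 (minus strand), Pgk1 at chrX:106186938-106186966 and chrX:106186957-106186985, Pkm at chr9:59657140-59657168, and Ldha at chr7:46845647-46845675, chr7:46845744-46845772 and chr7:46845758-46845786, of which those at -145 and -48 lie within the 2 E-boxes of its window. The first base of the match lies at positions -36, -52, -99, -150, -131, -75, -145, -48 and -34 of an annotated start (position 0).
Slc2a1: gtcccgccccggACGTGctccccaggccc
Hk2: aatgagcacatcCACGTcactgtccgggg
Pfkl: atttgtagactgGCGTGcgctccgccttt
Pgk1 (-150): gcgtcgtgcaggACGTGacaaatggaagt
Pgk1 (-131): aaatggaagtagCACGTctcactagtctc
Pkm: ctccgatccggtCACGTccgcgccgcagc
Ldha (-145): ggtgtcgcagcaCACGTggagccactctt
Ldha (-48): cggcccagcctaCACGTgggttcccgcac
Ldha (-34): cgtgggttcccgCACGTccgctgggctcc

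The neighbouring pathways were read against 20.9% of all genes rising and 21.8% falling from D0 to D13. Of 105 listed genes with a row, 38 rose and 23 fell between these days, and their median log2 fold change was 0.43. Among glucose transporters, 5 of the 6 with a row rose and 1 fell. Besides Slc2a3, the highest of these was Slc2a8, named after its value was seen, which rose from 10.4 to 26.0 CPM (limma adjusted p = 0.0112). The others were low: Slc2a12 rose from 0.32 to 2.48 CPM, Slc5a1 (the sodium-coupled transporter SGLT1) from 1.18 to 7.09 CPM and Slc2a4 (GLUT4) from 1.65 to 4.67 CPM. Slc2a5, a fructose transporter, fell from 4.90 to 0.79 CPM. Without D0 replicate 1, 2 of the 6 rose. The Slc2a4 call was lost without D0 replicate 1 or D13 replicate 2 (adjusted p of up to 0.13).

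Of 7 genes of lactate enzymes and transporters, 4 rose and 2 fell. Slc16a3 (MCT4, a lactate exporter) fell from 103 ± 58.1 to 8.12 ± 0.06 CPM (SD, n = 2; log2 fold change -3.54, limma adjusted p = 0.00084), and Emb, a chaperone of monocarboxylate transporters, from 235 ± 57.7 to 10.1 ± 3.82 CPM (-4.56, limma adjusted p = 2.68e-05). The testis form Ldhc rose from 1.42 to 7.22 CPM (2.54, limma adjusted p = 0.0037). Bsg, another chaperone of these transporters, rose from 249 to 454 CPM (0.85, limma adjusted p = 0.0307), a call lost without D0 replicate 2, D13 replicate 1 or either D6 sample, and the transporter gene Slc16a1 had a log2 fold change of 0.51 that did not pass (limma adjusted p = 0.13). Bsg and Slc16a1 were added after their values were seen. Of 5 regulators of fructose bisphosphate, 3 rose and 0 fell between D0 and D13: the gluconeogenic Fbp2 (0.94 to 9.60 CPM, log2 fold change 3.36, limma adjusted p = 0.0001), Pfkfb2 (1.23, limma adjusted p = 0.0287) and Pfkfb4 (1.16, limma adjusted p = 0.0174). Pfkfb3, added after its values were seen, did not pass between these days (0.43, limma adjusted p = 0.23) but was lowest on D6. As day means it had 20.9 CPM in serum, 8.23 CPM on D6 and 28.4 CPM on D13. By D6 its log2 fold change was -1.35 (limma adjusted p = 0.0066). Its later rise of 1.78 to D13 also passed (limma adjusted p = 0.0198). Its calls with single samples left out are not given. The Pfkfb2 call was lost without D0 replicate 1 or D13 replicate 2 (adjusted p of up to 0.16), and the Pfkfb4 call without either D6 sample (up to 0.057).

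At the entry of pyruvate into mitochondria, 6 of 16 genes rose and 1 fell. Among the kinases that inhibit pyruvate dehydrogenase, Pdk1 fell and Pdk4 rose. Pdk1 went from 248 ± 59.6 CPM at D0 to 39.1 ± 7.99 at D6 and 24.9 ± 0.19 at D13 (SD, n = 2; log2 fold change to D13 -3.30, limma adjusted p = 4.31e-05). Pdk4, also named after its value was seen, went from 6.62 ± 2.69 CPM in the D0 samples to 23.9 ± 4.55 CPM in those of D13 (SD, n = 2; 1.90, limma adjusted p = 0.00514). Mpc1, a subunit of the mitochondrial pyruvate carrier, rose from 5.97 to 40.7 CPM (2.80, limma adjusted p = 0.00016). Pdp2, a phosphatase that reactivates pyruvate dehydrogenase, rose by 2.13 (limma adjusted p = 0.002), and Pck2, the mitochondrial phosphoenolpyruvate carboxykinase, by 2.50 (limma adjusted p = 0.0233), with the Pck2 call lost without D0 replicate 1, D13 replicate 1 or D13 replicate 2 and values from 1.12 to 3.87.

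In the pentose phosphate pathway, 5 of 11 genes rose and 0 fell, with log2 fold changes of 1.78 for Tktl1, 1.65 for Prps1, 1.14 for Tkt and 0.87 for Taldo1 (limma adjusted p = 0.0069, 0.00066, 0.0122 and 0.0263). Without D0 replicate 2, 2 of the 11 rose, Tkt and Taldo1 not among them, and both were also lost without D13 replicate 1 (adjusted p of up to 0.13). In the serine branch, 1 of 7 genes (Phgdh, 0.77, limma adjusted p = 0.0369) rose and 0 fell. That count was 0 without D0 replicate 1, without D6 replicate 1, without D6 replicate 2 or without D13 replicate 1, while it was 4 (3 up and 1 down) without D0 replicate 2 and 3 without D13 replicate 2. Among the other sugar phosphate branches, 5 of 11 rose and 3 fell, with Pgm1 (1.79), Sord (1.67) and Ugdh (1.38) up and the fructokinase gene Khk (-2.75) down (limma adjusted p = 0.00026, 0.0074, 0.0019 and 0.0035). Without D13 replicate 1, 3 of these 11 rose and 2 fell, and Sord did not pass (adjusted p = 0.055).

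Regulators that are known to act on glycolysis genes were read in the same way. Of 26 genes of the hypoxia pathway and its non-glycolytic targets, 6 rose and 10 fell from D0 to D13 (median -0.43). Beside Pdk1, the largest changes were those of Arnt2 (-2.86, limma adjusted p = 0.00027) and Hif3a (-2.27, limma adjusted p = 0.0038), which fell, and of Vegfa (2.62, limma adjusted p = 0.0085), which rose but did not pass without D13 replicate 1 or D13 replicate 2 (adjusted p of up to 0.059). Of 5 genes of the glucose-sensing Mondo pathway, Mlxipl rose (1.69, limma adjusted p = 0.0045) and Mlx fell (-1.03, limma adjusted p = 0.0047). All 3 Myc genes fell, with Myc going from 68.7 ± 35.5 CPM at D0 to 2.50 ± 1.31 at D6 and 0.51 ± 0.07 at D13 (SD, n = 2; log2 fold change to D13 -6.99, limma adjusted p = 2.89e-05), Mycn changing by -2.85 (limma adjusted p = 3.36e-05) and Mycl by -0.79 (limma adjusted p = 0.0219), the last call being lost without either D6 sample (up to 0.083).

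**Figure D5:**
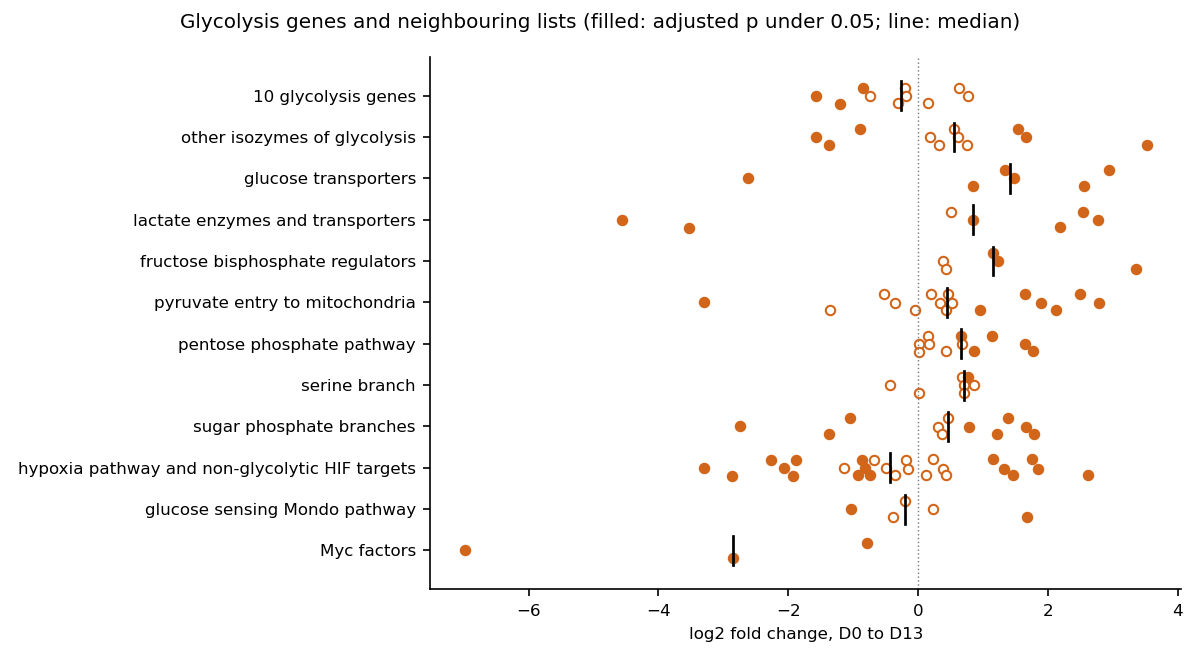
Log2 fold change from D0 to D13 (x axis) of each gene with a row in the glycolysis set and in 11 neighbouring lists (y axis), filled for an adjusted p under 0.05, with the median of each list as a line. The median of the 10 glycolysis genes is -0.26, that of the glucose transporters 1.41 and that of the Myc genes -2.85.

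The genes whose pattern was most like the mean centred log2 CPM of the members, among 4941 genes of sufficient level and spread, were Emp1, Ada, Mettl13, Map6 and Unc5b, with Pearson's r over the 6 samples of 0.987, 0.982, 0.955, 0.953 and 0.949, as a description and without a test. Of the members, Ldha followed this mean most closely (r = 0.997), and Hk2 (r = 0.02) and Aldoa (r = 0.17) least. Each member is itself part of this mean, so that its r is in part built in. The 6 points share the D0 replicate difference. Emp1, with the highest r, had 26.0 and 11.1 CPM in the D0 samples, 5.93 and 8.82 CPM in those of D6 and 8.67 and 13.1 CPM in those of D13.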

How the data were processed

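Libraries of J1 ES cells from D0, D6 and D13, grouped by the day in the labels with 2 samples each, were analysed. Paired-end reads had been mapped by the authors to mm10 and the RefSeq genes (TopHat2 2.0.6) and counted with HTSeq 0.6.1. Genes and transposon families were joined and TMM-normalized with edgeR, and the authors deposited voom log2 CPM. The deposited log2 values of all 12928 rows were fitted with limma 3.58.1 (R 4.3.3), with a mean per day, a mean-variance trend, no block and Benjamini-Hochberg adjustment. Gene values lay on whole reads plus 0.5 within 0.01 reads in 100% of cases, which gave the depth of 73230745 to 83688345 gene reads per sample. On simulated data for the D0 to D13 comparison with 12626 genes and 200 changed by a log2 change of 1, 99.5% were recovered and 15 unchanged genes were called. That recovery holds only for the replicate spread simulated. In the real data the median absolute log2 difference between D0 replicates was 0.34 over all genes and 0.68 over the members. Between D13 replicates it was 0.38 over all genes. Of the members changing by more than this log2 size to D6, Pfkl and Pkm passed, whereas Slc2a1 (-1.15) and Ldha (-1.34) did not. Tables and plots were made with Python 3.11.15, pandas 2.3.3 and matplotlib 3.10.9.

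The members, lists and rules for named genes were chosen with earlier results of these data known. Named are all members and their paralogs, at most 4 genes per list with the largest change from D0 to D13 past an adjusted p under 0.05 and 10 reads or more in both samples of the higher day, and the 5 genes most like the members, with at least 10 CPM in the highest sample and at least the SD of the mean member profile. Eno1b, a listed gene outside this rule, is given for its overlap with Eno1, and Bsg, Slc16a1, Pdk4, Slc2a8 and Pfkfb3 were added after their values were seen. The files hold gene names without capital G, none of which was restored, so that genes such as those for glucose phosphate isomerase and glyceraldehyde phosphate dehydrogenase were not analysed here. Positions and promoters are from RefSeq on GRCm38.p6 and exon lengths from GENCODE on the same build. Alternatives were a minimum of 10 reads in 2 samples, only the 2 days compared in the fit, a block for the replicate number, no trend, voom precision weights, centring on the median gene, log2(CPM + 1), adjustment over genes only, other thresholds and each sample left out. A crossed block was chosen after seeing the data.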

Additional observations from a re-analysis of the deposited data

How the results depend on the processing

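Of the values of single members under the alternatives, 372 kept their direction and side of the threshold, 22 lost a call, 9 gained one and 17 changed sign. None of the calls changed sign. With the replicate number as a block, 5 members passed from D0 to D6 in place of 3, 2 genes of the serine branch in place of 1 from D0 to D13, and 12 genes of all lists in place of 7 from D6 to D13. Same-numbered samples deviated with r = -0.13 (D0 and D6), 0.33 (D6 and D13) and 0.14 (D0 and D13), so that the numbers were not taken as a pairing, and D0 with its numbers swapped in the block gave 5 members from D0 to D6. From D0 to D13 the block gave 3 members, with Hk2 gained (adjusted p = 0.0487) and Pkm lost (adjusted p = 0.0547), and the swapped block 4, 1 of them higher. An adjusted p under 0.01 left 1 member from D0 to D6 and 1 from D0 to D13. An unadjusted p under 0.05 gave 5, 2 and 5 members from D0 to D6, D6 to D13 and D0 to D13. Of those from D0 to D13, Hk2 and Aldoa were higher at D13 and the others lower. A 2-fold minimum gave 2 members from D0 to D6 and 2 from D0 to D13. Without a trend, and with centring on the median gene, 1 member passed from D0 to D13. Centring also turned Slc2a1 from D6 to D13 to 0.0086. The shares of all genes called under these alternatives are not given, so that the member and list counts cannot be set against them. The causes were not tested.

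Leaving out each sample in turn gave 1 to 5 members from D0 to D6, 0 to 2 of them past 4-fold, 1 to 4 from D0 to D13 and 0 from D6 to D13. It gave 3 to 6 glucose transporters, 2 to 5 pentose phosphate genes, 0 to 4 serine genes and 5 to 8 sugar phosphate genes from D0 to D13, and 22 to 41 genes of all lists from D0 to D6 and 0 to 9 from D6 to D13. Signs changed in the ranges from D0 to D6 of Aldoa (-0.079 to 0.33), Tpi1 (-0.70 to 0.022), Pgam1 (-0.76 to 0.31) and Eno1 (-0.66 to 0.12), from D6 to D13 of Slc2a1 (-0.31 to 0.21), Hk2 (-0.049 to 0.32), Pgam1 (-0.31 to 0.13), Eno1 (-0.39 to 0.56) and Pkm (-0.016 to 0.40), and from D0 to D13 of Tpi1 (-0.20 to 0.52), Pgam1 (-0.85 to 0.22) and Eno1 (-0.66 to 0.29). With a single sample left on a day, that sample is assumed to vary like the others. The shares of all genes called in these fits are not given, so the counts cannot be set against them.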
